A study of Homo sapiens and Mus musculus with 24 samples.

Results

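The genes described here are 9 members of the insulin-like growth factor (IGF) system in mouse cancer-associated fibroblasts: the ligands Igf1 and Igf2, the receptor Igf1r and the binding proteins Igfbp2 to Igfbp7. They were chosen by symbol among the 39089 genes of the fibroblast table, and all 9 were among the 14828 genes tested. Igf1, Igf2 and Igfbp2 reached the minimum of 1 TPM in 2 libraries through the DMSO, enzalutamide and TGF-beta1 libraries, where they were high. TPM is a level scaled to the library total and corrected for transcript length, so levels can be set beside each other across genes. The study compared different kinds of fibroblasts, and the human LNCaP libraries of the series are not used here.

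10 fibroblast libraries in 5 groups of 2 were used, and the labels call the 2 of a group biological replicates. The labels describe all of them as stroma, give their own genotype as WT, and state that the cells came from mice whose genotype includes Trp53PC-/-. DMSO fibroblasts were collected at day 7 with the vehicle alone. Enzalutamide fibroblasts had 1 µM of this antiandrogen, TGF-beta1 fibroblasts had 5 ng/ml of this growth factor, and another group had both agents at those doses, also to day 7. The last group came from mice that the labels call ADT, without spelling it out, and was collected at day 0 with no treatment. All fibroblasts were grown in DMEM with 10% FBS. No source used here states the number of mice or of passages, so p-values measure the spread between libraries of the same group. That spread is pooled over the 5 groups and moderated by a trend over all genes tested. Against DMSO, the ADT group differs in mice, in day and in vehicle at once, and these cannot be told apart.

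IGF ligands are small secreted hormones made by many mesenchymal cells, and in the prostate the stroma is a classical source of Igf1 for the epithelium. Both ligands bind the receptor tyrosine kinase Igf1r, which signals through insulin receptor substrates to PI3 kinase and AKT. High-affinity binding proteins hold the ligands outside the cell, where they can block, store or deliver them, and proteases such as Pappa cut some binding proteins and free the ligand. Igfbp7 is a related matrix protein that binds IGFs weakly.

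The libraries labelled with both agents were close to the ADT libraries across the whole table, and every result that uses them carries that limit. The chi-square of read numbers per degree of freedom, which counting noise alone would put near 1, was 1.38 to 1.66 within groups. It was 1.78 to 2.47 between the libraries labelled with both agents and the ADT libraries, and 17.1 to 233.0 for the other 36 pairs of libraries from different groups. Each library held 16470291 to 19938332 reads in genes whose read number could be worked out from the spacing of the TPM values. In the DMSO columns, 50 of 17512 such genes held whole reads only after division by 0.3. None of the 9 IGF genes was affected, and all held whole reads in all 10 libraries. Tgfbi, a TGF-beta target, averaged 12.9 ± 1.24 TPM (SD, n = 2) in DMSO, 10.9 ± 1.41 with enzalutamide and 23.4 ± 0.0509 with TGF-beta1. It averaged 55.2 ± 3.41 TPM in the libraries labelled with both agents and 55.8 ± 3.32 in the ADT libraries. The actin gene Acta2, a myofibroblast marker, averaged 5388 ± 62.6, 4902 ± 23.8, 3998 ± 39.9, 1794 ± 5.06 and 1802 ± 9.86 TPM in DMSO, enzalutamide, TGF-beta1, both-agents and ADT libraries. Fkbp5, a co-chaperone, stood at 21.0 ± 2.85, 16.4 ± 0.0560, 66.0 ± 2.00, 71.9 ± 1.20 and 74.8 ± 0.774 TPM in the same order.

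Fibroblast markers were present in every group, with 10 of 10 at 1 TPM or more in DMSO and 9 of 10 elsewhere, where Lum was lower. Summed epithelial markers stayed at or below 3.34 TPM. Markers of other cells also differed between groups. The 7 macrophage and leukocyte markers summed to 106 to 109 TPM in DMSO, 88.2 to 98.0 with enzalutamide and 91.1 to 95.5 with TGF-beta1. In the last 2 groups they summed to 24.3 to 25.5 (labelled with both agents) and 29.0 to 29.5 TPM (ADT). Of the 6 tested, 5 were lower in each of these 2 groups than in DMSO, where 42.7% (both agents) and 43.3% (ADT) of all genes tested were lower. Adgre1 and Tyrobp reached the minimum of 1 TPM only in DMSO, enzalutamide and TGF-beta1 libraries, so these genes were tested only through groups where they were higher. Lyz2 carried most of the DMSO sum, at 80.1 ± 2.62 TPM, and fell to 2.81 ± 1.71 and 4.04 ± 0.963 TPM. Cd14 went the other way, from 14.0 ± 0.436 TPM in DMSO to 18.0 ± 0.811 and 19.5 ± 1.45 TPM (adjusted p = 0.0054 and 0.0013). The 5 endothelial markers summed to 15.1 to 16.6 TPM in DMSO, 10.5 to 10.9 with enzalutamide and 11.1 to 11.3 with TGF-beta1. Their sum was 1.27 to 1.76 TPM in the last 2 groups, where Emcn was at 0. The 3 glial markers summed to 8.74 to 10.6 TPM in DMSO, 6.73 to 6.77 with enzalutamide and 4.37 to 5.58 with TGF-beta1. Their sum was 0.653 to 0.807 TPM in the last 2 groups, where Sox10 was at 0. The 5 pericyte and smooth muscle markers summed to 193 to 196 TPM in DMSO, 204 to 213 with enzalutamide, 376 to 381 with TGF-beta1 and 54.5 to 59.5 in the last 2 groups. Cspg4 carried the higher sum with TGF-beta1, at 238 ± 1.75 TPM against 19.2 ± 0.797 TPM in DMSO, while Des (-0.27, adjusted p = 0.018) and Myh11 (-0.95, adjusted p = 0.00011) fell. With enzalutamide Cspg4 stood at 47.6 ± 1.95 TPM (adjusted p = 1.0e-06). It was the 1 higher of the 5 there and 3 were lower, where 9.83% of all genes tested rose and 15.2% fell. In the last 2 groups Cspg4 was higher than in DMSO and the other 4 were lower, where 31.5% of all genes were higher and 42.7% and 43.3% lower. The part of these cells in the IGF results was not tested. In bulk RNA, fewer cells of a type and less RNA per cell cannot be told apart.

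Both ligands were highest in DMSO fibroblasts and lower in each of the other groups, and most binding proteins were far lower in the ADT libraries than in DMSO, with Igfbp3 and Igfbp5 as the exceptions. A gene is called changed when its adjusted p, from limma over all genes tested, is under 0.05. With enzalutamide 1 of the 9 genes rose and 4 fell, where 9.83% of all genes tested rose and 15.2% fell. With TGF-beta1 1 rose and 7 fell, where 19.0% of all genes rose and 34.6% fell. Between the libraries labelled with both agents and DMSO 2 rose and 7 fell, and between ADT and DMSO fibroblasts also 2 rose and 7 fell. The share of all genes was 31.5% higher and 42.7% lower in the former and 31.5% higher and 43.3% lower in the latter, so a change by itself was common there. The median difference of the 9 genes was -1.82 and -1.77 on log2(TPM + 1) in these comparisons, against -0.13 over all genes in each. The 4 comparisons share the DMSO libraries.

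**Figure D1:**
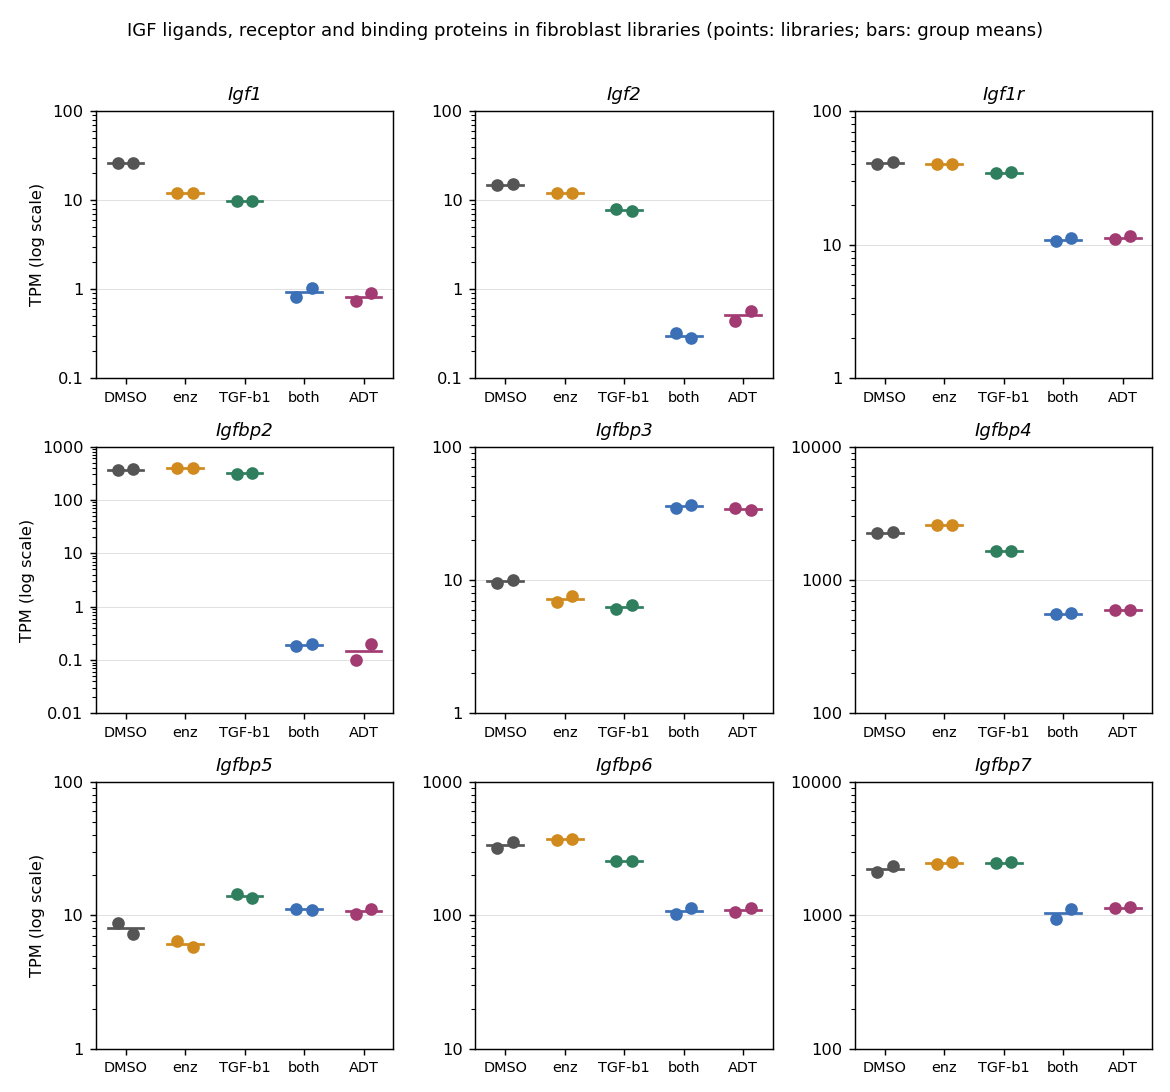
TPM of the 9 genes on log axes in each of the 10 libraries (points) with the group means (bars), for DMSO, enzalutamide (enz), TGF-beta1 (TGF-b1), the libraries labelled with both agents (both) and the ADT mice (ADT). Igf1 and Igf2 step down from DMSO through enzalutamide and TGF-beta1 to the last 2 groups, where Igf2 is higher in the ADT libraries than in those labelled with both agents, Igfbp2 lies near 0.2 TPM or below only in the last 2 groups, and Igfbp3 is highest there.

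Igf1, the ligand through which growth hormone acts on many tissues, was lower in all other groups than in DMSO. It stood at 26.0 and 26.3 TPM in the DMSO libraries, 11.9 and 12.1 TPM with enzalutamide, 9.69 and 9.78 TPM with TGF-beta1, 0.819 and 1.02 TPM in the libraries labelled with both agents, and 0.740 and 0.895 TPM in the ADT libraries. The DMSO, enzalutamide and TGF-beta1 libraries each stood apart from every other group, and only the last 2 groups overlapped. Igf1 fell 2.18-fold with enzalutamide (log2 difference -1.06, SE 0.081, adjusted p = 5.3e-05) and 2.69-fold with TGF-beta1 (-1.34, SE 0.081, adjusted p = 3.5e-06). It was 32.0-fold lower in ADT than in DMSO fibroblasts (-3.90, SE 0.081, adjusted p = 2.5e-09), from 99 pooled reads against 2814. Log2 differences are on log2(TPM + 1) and so understate the fold of genes near or below 1 TPM.

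Igf2, the second ligand and an imprinted gene of fetal growth, showed a smaller difference with each single agent. Its levels were 14.7 and 15.3 TPM in DMSO, 12.0 and 12.1 TPM with enzalutamide, 7.88 and 7.62 TPM with TGF-beta1, 0.320 and 0.283 TPM in the libraries labelled with both agents, and 0.439 and 0.574 TPM in the ADT libraries. No group overlapped with another, although the pooled 25 and 40 reads of the last 2 groups have overlapping counting intervals of 16.2 to 36.9 and 28.6 to 54.5 reads. Igf2 fell 1.93-fold with TGF-beta1 (log2 difference -0.87, SE 0.082, adjusted p = 4.8e-05) and was 29.6-fold lower in ADT than in DMSO fibroblasts (-3.41, SE 0.082, adjusted p = 5.4e-09). The counting interval of that ratio of reads is 21.5 to 41.5, and such intervals cover counting error only. With enzalutamide Igf2 was 1.24-fold lower (-0.29, SE 0.082, adjusted p = 0.037). That call was lost when any 1 of the 4 libraries compared was left out (adjusted p of 0.11 without the first DMSO library, 0.16 without the second, 0.14 without the first enzalutamide library and 0.13 without the second). It was also lost with a pseudocount of 0.1 (adjusted p = 0.16), without a filter on low values (0.083) and with the replicate number as a block (0.053).

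Igf1r, the receptor kinase of both ligands, did not pass the test with enzalutamide and was low in the last 2 groups. It stood at 40.3 and 41.6 TPM in DMSO, 40.2 and 40.0 TPM with enzalutamide, 34.2 and 34.8 TPM with TGF-beta1, 10.6 and 11.2 TPM in the libraries labelled with both agents, and 11.1 and 11.5 TPM in the ADT libraries. The last 2 groups overlapped and lay below all others. The difference with enzalutamide was -0.03 (95% interval -0.13 to 0.075, adjusted p = 0.68). Igf1r fell 1.19-fold with TGF-beta1 (log2 difference -0.24, SE 0.045, adjusted p = 0.0024). In ADT fibroblasts it was 3.62-fold lower than in DMSO (-1.77, SE 0.045, adjusted p = 7.5e-09).

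Igfbp2, a secreted binding protein that prefers Igf2, had the widest range of the 9 genes. It was abundant in DMSO at 362 and 372 TPM, with enzalutamide at 391 and 390 TPM and with TGF-beta1 at 303 and 323 TPM. In the libraries labelled with both agents it stood at 0.181 and 0.204 TPM, from 2 reads in each, and in the ADT libraries at 0.102 and 0.198 TPM, from 1 and 2 reads. The 6 libraries of the first 3 groups held between 2597 and 3451 reads of it, so the gap to the other 4 libraries was the widest of the 9 genes. The ratio of reads between DMSO and ADT fibroblasts, scaled for depth, was 2433, with a counting interval from 832.3 to 11803, and between DMSO and the libraries labelled with both agents 1912 (746.5 to 7021). The fitted differences of -8.32 (SE 0.051, adjusted p = 8.7e-12) and -8.27 (adjusted p = 8.4e-12) depend on the added 1 TPM. With TGF-beta1 Igfbp2 was 1.17-fold lower (-0.23, SE 0.051, adjusted p = 0.0057), a call that was lost with median-of-ratios scaling (-0.12, adjusted p = 0.080) and with a pseudocount of 0.1 (adjusted p = 0.25). With enzalutamide the difference was 0.090 (95% interval -0.027 to 0.21, adjusted p = 0.25).

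Igfbp3, the main carrier of IGFs in blood, went the other way from Igfbp2. It stood at 9.55 and 10.0 TPM in DMSO, 6.83 and 7.65 TPM with enzalutamide, 6.05 and 6.44 TPM with TGF-beta1, 34.6 and 36.6 TPM in the libraries labelled with both agents, and 34.8 and 33.3 TPM in the ADT libraries. The last 2 groups overlapped and were the highest, and the TGF-beta1 libraries were the lowest. Igfbp3 fell 1.35-fold with enzalutamide (log2 difference -0.39, SE 0.067, adjusted p = 0.0041) and 1.57-fold with TGF-beta1 (-0.58, SE 0.067, adjusted p = 0.00017). It was 3.47-fold higher in ADT than in DMSO fibroblasts (1.70, SE 0.067, adjusted p = 9.2e-08).

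Igfbp4, an inhibitor of IGF action that Pappa cleaves, was the most abundant or next most abundant of the 9 genes in every library. Its levels were 2251 and 2285 TPM in DMSO, 2583 and 2597 TPM with enzalutamide, 1654.0 and 1654.1 TPM with TGF-beta1, 556 and 565 TPM in the libraries labelled with both agents, and 593 and 600 TPM in the ADT libraries. No 2 groups overlapped, and Igfbp4 was the only member that rose with enzalutamide. That rise was 1.14-fold (log2 difference 0.19, SE 0.015, adjusted p = 5.2e-05). Igfbp4 fell 1.37-fold with TGF-beta1 (-0.46, SE 0.015, adjusted p = 9.8e-08) and was 3.80-fold lower in ADT than in DMSO fibroblasts (-1.93, SE 0.015, adjusted p = 2.4e-11).

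Igfbp5, a binding protein that also attaches to the matrix, was the only member that rose with TGF-beta1. It stood at 8.73 and 7.23 TPM in DMSO, 6.47 and 5.81 TPM with enzalutamide, 14.4 and 13.5 TPM with TGF-beta1, 11.2 and 11.0 TPM in the libraries labelled with both agents, and 10.2 and 11.2 TPM in the ADT libraries. TGF-beta1 libraries were the highest and enzalutamide libraries the lowest, and the last 2 groups overlapped. Igfbp5 rose 1.74-fold with TGF-beta1 (log2 difference 0.74, SE 0.095, adjusted p = 0.00030) and was 1.34-fold higher in ADT than in DMSO fibroblasts (0.39, SE 0.095, adjusted p = 0.0058). With enzalutamide it was 1.30-fold lower (-0.33, SE 0.095, adjusted p = 0.038). That call was lost without the first DMSO library (adjusted p = 0.19), without the first enzalutamide library (0.061) or the second (0.18), without a filter on low values (0.078), without the libraries labelled with both agents (0.060) and in a fit of only the 2 groups (0.11).

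Igfbp6, which binds Igf2 far more tightly than Igf1, had 320 and 352 TPM in DMSO, 369 and 373 TPM with enzalutamide, 257 and 255 TPM with TGF-beta1, 102 and 114 TPM in the libraries labelled with both agents, and 106 and 112 TPM in the ADT libraries. Its order of groups was that of Igfbp4, with overlap in the last 2 groups. Igfbp6 fell 1.31-fold with TGF-beta1 (log2 difference -0.39, SE 0.059, adjusted p = 0.00078) and was 3.08-fold lower in ADT than in DMSO fibroblasts (-1.61, SE 0.059, adjusted p = 6.1e-08). The difference with enzalutamide was 0.14 (95% interval 0.0049 to 0.28), which did not pass after adjustment (adjusted p = 0.12).

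Igfbp7, the weak IGF binder of vessels and matrix, was at 2125 and 2359 TPM in DMSO, 2423 and 2520 TPM with enzalutamide, 2461 and 2505 TPM with TGF-beta1, 946 and 1122 TPM in the libraries labelled with both agents, and 1143 and 1145 TPM in the ADT libraries. The enzalutamide and TGF-beta1 libraries overlapped, and both lay above DMSO. Neither difference passed the test, at 0.14 with enzalutamide (95% interval -0.031 to 0.32, adjusted p = 0.21) and 0.15 with TGF-beta1 (-0.024 to 0.32, adjusted p = 0.13). The latter passed with median-of-ratios scaling (0.26, adjusted p = 0.019) and in the fit without the libraries labelled with both agents (adjusted p = 0.028). Igfbp7 was 1.96-fold lower in ADT than in DMSO fibroblasts (log2 difference -0.97, SE 0.075, adjusted p = 5.8e-06). Endothelial cells are known for high Igfbp7, and the summed endothelial markers given above were also lower in the ADT libraries. Those sums were lower than in DMSO with enzalutamide (10.5 to 10.9 TPM) and TGF-beta1 (11.1 to 11.3 TPM) too, where Igfbp7 was not lower. The part of endothelial cells in the ADT difference was not tested.

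**Figure D2:**
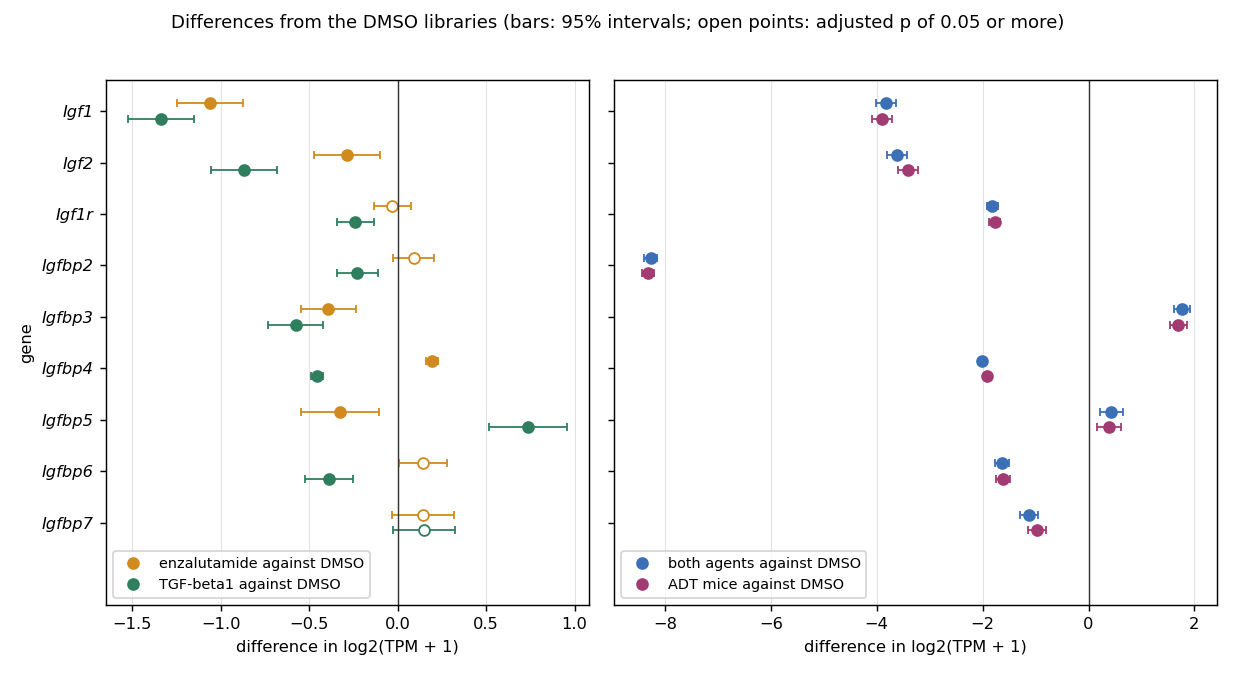
Differences from the DMSO libraries in log2(TPM + 1) for the 9 genes, with 95% intervals, for the single agents (left) and for the libraries labelled with both agents and the ADT mice (right); the horizontal scales differ. Filled points have an adjusted p under 0.05: with enzalutamide Igfbp4 is the only filled point to the right of 0, with TGF-beta1 Igfbp5, and on the right Igfbp3 and Igfbp5.

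Another scaling of the libraries shifted all genes together. Median-of-ratios scaling moved the median of all genes from -0.099 to -0.0054 with TGF-beta1 and from -0.133 to 0.0010 in ADT against DMSO. The genes called with TGF-beta1 then numbered 3938 higher and 3853 lower, against 2816 and 5137 as deposited. Among the 9 genes the TGF-beta1 calls became 2 higher and 6 lower, through Igfbp7 and Igfbp2, and no called difference of the 9 genes changed sign. In ADT against DMSO all 9 calls were kept, with Igf1 at -3.78 and Igfbp3 at 1.85.

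The design asks next whether the agents together did more than the sum of each. In the libraries labelled with both agents Igf1, Igf2, Igf1r, Igfbp2, Igfbp4, Igfbp6 and Igfbp7 lay below the sum of the single effects, and Igfbp3 lay above it. Over all genes tested, 30.7% lay above additivity and 33.1% below. Igf1 was 28.4-fold lower in these libraries than in DMSO (log2 difference -3.82, SE 0.081, adjusted p = 2.8e-09), and its departure from the sum of the single differences was -1.42 (SE 0.11, adjusted p = 1.2e-05). The other differences from DMSO in these libraries were -3.62 for Igf2, -1.82 for Igf1r, -2.01 for Igfbp4, -1.63 for Igfbp6 and -1.12 for Igfbp7, and 1.76 for Igfbp3 and 0.43 for Igfbp5, all called. The TGF-beta1 difference of Igfbp3 was -0.58 without enzalutamide and 2.15 with it. For Igfbp5 it was 0.74 without and 0.76 with enzalutamide, and the departure of 0.023 did not pass (95% interval -0.29 to 0.33, adjusted p = 0.90). Since the libraries labelled with both agents resembled the ADT libraries in all genes, an effect of the agents and whatever made these libraries resemble the ADT libraries cannot be told apart.

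Between the libraries labelled with both agents and the ADT libraries, limma called 0 of the 9 genes, and 2 of the 9 had an unadjusted p under 0.05. These were Igfbp4 (log2 difference -0.090, 95% interval -0.12 to -0.056, adjusted p = 0.20) and Igf2 (-0.21, 95% interval -0.40 to -0.020, adjusted p = 0.57). For the other 7 genes the differences lay between -0.15 for Igfbp7 (95% interval -0.32 to 0.023) and 0.080 for Igf1 (95% interval -0.11 to 0.27). Over all genes, 0.0135% were higher and 0.00% lower: the 2 called, named after their values were seen, were the microRNA genes Mir7041 and Mir7050. Mir7041 stood at 2.50 and 2.82 TPM in the libraries labelled with both agents and at 0 in all others, so it was tested only through them. Mir7050 stood at 2.16 and 2.44 TPM there, at 2.71 and 2.83 TPM with enzalutamide and at 0 in the ADT libraries. Both lay near the minimum of 1 TPM, which limits these 2 calls. Of all genes, 1220 had an unadjusted p under 0.05, and 530 of these were lower. The intervals bound the differences of these 9 genes and do not show that the groups are alike.

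The summed binding proteins were fewer and made up differently in the ADT libraries. Igfbp2 to Igfbp7 together held 5076 and 5386 TPM in DMSO, 5779 and 5894 TPM with enzalutamide, 4695 and 4758 TPM with TGF-beta1, 1650 and 1849 TPM in the libraries labelled with both agents, and 1887 and 1902 TPM in the ADT libraries. The 3 first groups stood above the last 2 in every library. Igfbp7 made up 41.9% and 43.8% of the sum in DMSO, 52.4% and 52.6% with TGF-beta1 and 60.6% and 60.2% in the ADT libraries, while Igfbp4 made up 44.3% and 42.4%, 35.2% and 34.8%, and 31.4% and 31.5%. With TGF-beta1, then, Igfbp7 took a larger share than Igfbp4 in both libraries, whereas in DMSO the order differed between the 2 libraries. Igfbp2 supplied 7.13% and 6.90% of the sum in DMSO and 0.00541% and 0.0104% in the ADT libraries. Igfbp3 supplied 0.188% and 0.187% in DMSO and 1.84% and 1.75% in the ADT libraries, so it exceeded Igfbp2 there.

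**Figure D3:**
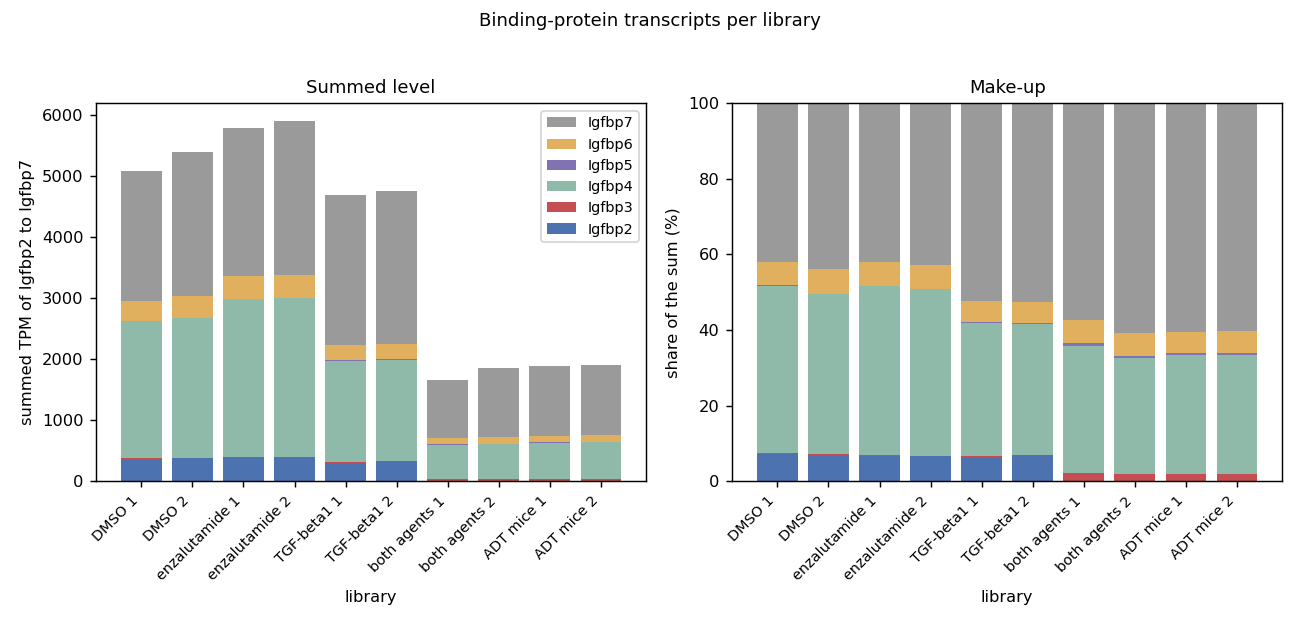
Stacked bars for each of the 10 libraries: summed TPM of Igfbp2 to Igfbp7 (left) and the share of each in that sum in percent (right). The sum lies between 4695 and 5894 TPM in the first 6 libraries and between 1650 and 1902 TPM in the last 4, where the Igfbp2 band is gone and an Igfbp3 band can be seen.

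Ligand transcripts were scarce beside those of the binding proteins, and the ratio was lower in every group than in DMSO. The binding proteins counted here include the weak binder Igfbp7. It made up 41.9% and 43.8% of their sum in DMSO and 60.6% and 60.2% in the ADT libraries. Igf1 and Igf2 together held 8.02 and 7.71 TPM per 1000 TPM of binding proteins in DMSO, 4.15 and 4.11 with enzalutamide and 3.74 and 3.66 with TGF-beta1. In the libraries labelled with both agents the ratio was 0.690 and 0.707, and in the ADT libraries 0.625 and 0.773, with overlap between these groups. Sums and ratios are given as values, because an exact permutation test of 2 libraries against 2 cannot give a two-sided p below 0.333.

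Other genes of the IGF pathway were taken from a list of 35, chosen like the 9 members with earlier results of these data known. Of these, 30 were tested. The other 5 (Igfbp1, Igfals, Igfbpl1, Pappa2 and Insrr) stayed under 1 TPM in every library, so Igfbp1 was the high-affinity binding protein with little or no RNA in all 10. With enzalutamide 3 of the 30 rose and 9 fell, with TGF-beta1 6 rose and 14 fell, and in ADT against DMSO 11 rose and 18 fell, as they did in the libraries labelled with both agents. The shares over all genes tested were 9.83% higher and 15.2% lower with enzalutamide, 19.0% and 34.6% with TGF-beta1, 31.5% and 43.3% in ADT, and 31.5% and 42.7% with both agents, so the counts of higher genes lay near these shares. Their median differences were -0.08, -0.16, -0.29 and -0.33, against -0.01, -0.10, -0.13 and -0.13 over all genes tested. With median-of-ratios scaling the counts were 4 higher and 9 lower, 10 and 13, 11 and 15, and 11 and 16, in the same order, and no gene called both ways changed sign. Between the libraries labelled with both agents and ADT libraries 0 of the 30 were called.

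Among the carriers and proteases, Pappa, the protease that cleaves Igfbp4, stood at 60.0 ± 1.70 TPM (SD, n = 2) in DMSO and 61.7 ± 1.11 TPM with TGF-beta1. It fell to 31.4 ± 0.304 TPM with enzalutamide (log2 difference -0.91, SE 0.041, adjusted p = 2.7e-06) and was lower still in ADT fibroblasts at 8.79 ± 0.205 TPM (-2.64, adjusted p = 5.8e-10). Stc1, a secreted inhibitor of Pappa, averaged 3.01 ± 0.0947 TPM in DMSO, 0.980 ± 0.219 TPM with enzalutamide and 14.5 ± 1.05 TPM in ADT fibroblasts (-1.02, adjusted p = 0.00018, and 1.94, adjusted p = 3.7e-07). Stc2, its relative and also an inhibitor of Pappa, rose from 8.45 ± 1.09 TPM in DMSO to 13.7 ± 2.66 TPM with enzalutamide (0.63, adjusted p = 0.018) and stood at 18.0 ± 1.10 TPM in ADT fibroblasts (1.01, adjusted p = 0.00033). The inhibitors thus moved in opposite directions with enzalutamide, and both were higher in ADT fibroblasts than in DMSO. Htra1, a serine protease of the matrix with an IGF-binding-protein-like domain, rose from 126 ± 3.74 TPM in DMSO to 491 ± 1.82 TPM in ADT fibroblasts (1.96, adjusted p = 5.7e-10) and fell with TGF-beta1 to 87.9 ± 1.90 TPM (-0.51, adjusted p = 2.9e-06). Htra3, its relative, rose with TGF-beta1 from 7.93 ± 0.977 to 19.8 ± 0.807 TPM (1.22, adjusted p = 0.00013). In the libraries labelled with both agents Pappa stood at 8.94 ± 0.0784, Stc1 at 14.4 ± 0.0993 and Htra1 at 485 ± 3.51 TPM. These 3 also departed from additivity, by -1.75, 3.32 and 2.30. Of the 30 genes, 11 lay above additivity and 12 below it, where 30.7% of all genes tested lay above and 33.1% below.

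**Figure D4:**
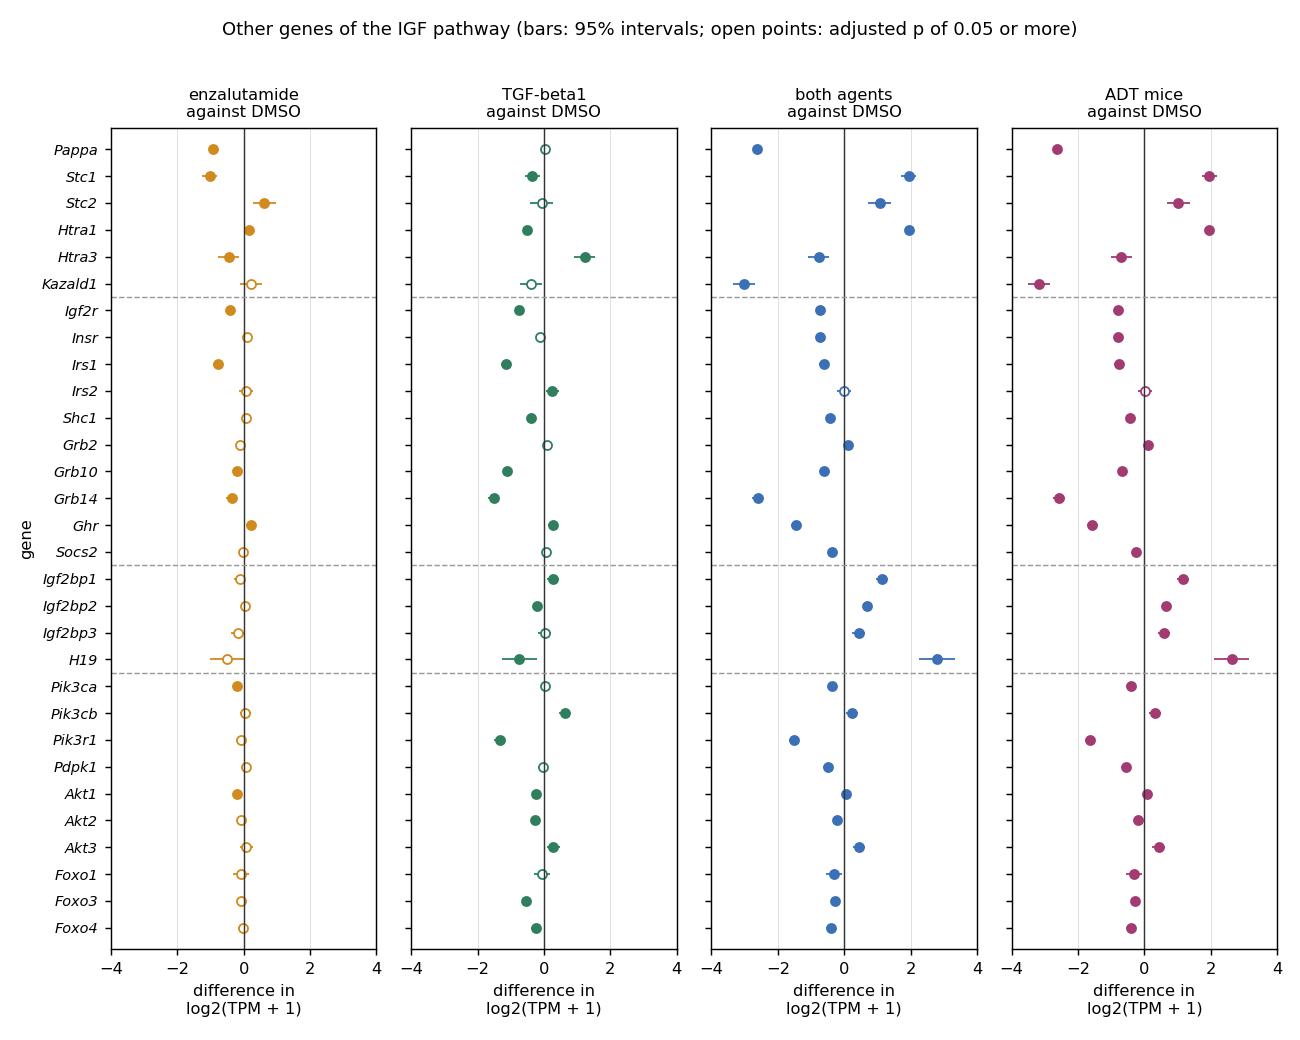
Differences from DMSO in log2(TPM + 1), with 95% intervals, of the 30 other IGF pathway genes tested, in 4 comparisons; dashed lines separate carriers and proteases, receptors and adaptors, the Igf2 mRNA-binding proteins with H19, and kinases with FOXO factors. Filled points have an adjusted p under 0.05: in the ADT column Pappa, Kazald1, Grb14 and Pik3r1 lie far left and H19, Stc1 and Htra1 far right.

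In the group of receptors and adaptors, 10 of 11 genes were tested, and 8 were lower and 1 higher in ADT than in DMSO fibroblasts, where 43.3% of all genes were lower and 31.5% higher. Igf2r, the receptor that takes up and degrades Igf2, stood at 170 ± 2.37 TPM in DMSO, 128 ± 0.759 TPM with enzalutamide (-0.41, adjusted p = 4.8e-05), 101 ± 1.25 TPM with TGF-beta1 (-0.75, adjusted p = 4.0e-07) and 97.4 ± 3.86 TPM in ADT fibroblasts (-0.80, adjusted p = 7.6e-08). Irs1, a substrate of the receptor kinase, fell from 18.1 ± 0.527 to 10.1 ± 0.834 TPM with enzalutamide (-0.78, adjusted p = 0.00011), while its relative Irs2, at 6.53 ± 0.436 and 6.93 ± 0.600 TPM, did not pass the test (adjusted p = 0.59). The adaptors Grb10 and Grb14, inhibitors of insulin and IGF receptor signals, fell with TGF-beta1 from 213 ± 4.20 to 98.5 ± 1.59 TPM (-1.10, adjusted p = 2.0e-08) and from 50.8 ± 0.219 to 17.1 ± 0.337 TPM (-1.51, adjusted p = 9.7e-07). In ADT fibroblasts they stood at 132 ± 2.25 and 7.72 ± 0.603 TPM (-0.68, adjusted p = 7.1e-08, and -2.57, adjusted p = 1.4e-08), and in the libraries labelled with both agents at 138 ± 0.393 and 7.59 ± 0.807 TPM. Ghr, the growth hormone receptor, was higher with TGF-beta1 (0.27, adjusted p = 0.011) and lower in ADT fibroblasts, at 14.6 ± 0.295 TPM against 45.2 ± 3.46 TPM in DMSO (-1.57, adjusted p = 1.5e-07), and its departure from additivity was -1.95 (adjusted p = 5.9e-07).

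The Igf2 mRNA-binding proteins and H19, an RNA of the Igf2 imprinted cluster that is made from the other parental copy, all rose in ADT fibroblasts, 4 of 4 where 31.5% of all genes rose, whereas Igf2 itself was lower. H19 was listed at 2.34 and 0.902 TPM in DMSO and at 14.4 and 14.8 TPM in the ADT libraries (log2 difference 2.63, SE 0.23, adjusted p = 1.3e-05). It reached the minimum of 1 TPM in 2 libraries only through the ADT libraries and those labelled with both agents, where it was high. Its place among the 4 is therefore not independent of the filter. Igf2bp1 rose from 5.37 ± 0.0595 to 13.2 ± 0.418 TPM (1.16), Igf2bp2 from 54.4 ± 0.449 to 86.4 ± 2.09 TPM (0.66) and Igf2bp3 from 6.41 ± 0.487 to 10.1 ± 0.700 TPM (0.59). None of the 4 was called with enzalutamide, with differences from -0.49 for H19 to 0.05 for Igf2bp2. Of the kinases and FOXO factors downstream, 3 rose and 7 fell of 10 in ADT against DMSO, beside 31.5% and 43.3% of all genes, and Pik3r1, a regulatory subunit of PI3 kinase, showed the largest difference of the 10, with 9.02 ± 0.954 TPM against 30.0 ± 0.252 TPM (-1.63, adjusted p = 1.2e-07). It also fell with TGF-beta1, to 11.3 ± 0.0968 TPM (-1.34, adjusted p = 1.3e-06).

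The genes whose levels followed each member most closely were looked for among 4418 genes whose group means ranged over at least 1 on log2(TPM + 1). Likeness was Pearson's r over the 10 libraries, given as a description: the points come from 5 groups of 2 libraries and share the gap between the first 6 libraries and the last 4. Igfbp6 was most like Igfbp4 (r = 0.998), the only member among the 3 closest genes of another. Other members were nearly as close, such as Igf1r with Igfbp2 (r = 0.997) and with Igf2 (r = 0.995). Igfbp3 and Igfbp5 had negative correlations with Igf1r (r = -0.962 and -0.438). Igf1 was most like Gng12, Syde2 and Gpc4, and Igf2 like Slit3 (r = 0.999), Sorbs3 and Nek9. Slit3, a secreted guidance protein, averaged 225, 176, 115, 13.2 and 13.6 TPM in DMSO, enzalutamide, TGF-beta1, both-agents and ADT libraries, and Igf2 had the same order of groups. Igf1r was most like Sulf2, Pink1 and Arhgap1, and Igfbp2 like Map1a, Col4a2 and Lats2. Igfbp3 was most like Asf1b, Dchs1 and Tpi1, Igfbp4 like Tpm2, Cobl and Inhbb, and Igfbp7 like Mxd4, Insyn1 and Mustn1. Igfbp5 had the least close matches, Gfpt2 (r = 0.979), Cthrc1 (r = 0.971) and Jag1 (r = 0.964). Jag1, a Notch ligand, averaged 7.03 TPM in DMSO, 4.92 with enzalutamide, 73.1 with TGF-beta1, 28.9 in the libraries labelled with both agents and 28.4 in the ADT libraries. It was highest with TGF-beta1 and lowest with enzalutamide. Slit3 and Jag1 were picked by correlation over these same libraries, so the orders of groups they share with Igf2 and Igfbp5 follow largely from the pick.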

How the data were processed

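RNA of the fibroblasts was extracted with Trizol and sequenced on a HiSeq after library preparation with an NEBNext Ultra kit, per the labels' protocols. The deposited values are TPM per gene symbol, per the file headers. HISAT2, HTSeq, DESeq2 and the builds mm10 and hg19 appear in the submitters' processing notes, with neither role nor version. No strand or gene position is stated in the files.

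The 9 members, the other gene lists and the tests were chosen with earlier results of these data known. The 10 libraries entered 1 limma model (limma 3.58.1, R 4.3.3) of log2(TPM + 1), with a mean-variance trend, 5 groups, no block and 5 residual degrees of freedom. Genes with at least 1 TPM in at least 2 libraries were kept. P-values are two-sided and adjusted by Benjamini-Hochberg over the 14828 genes within each comparison, with a threshold of 0.05. The Sox4-labelled columns stayed out, because the rule for the 9 members treats them as computed from the ADT columns. Whole reads were solved from the smallest steps of the TPM values (tolerance 0.02 reads), and values within 0.05 reads were called whole. These reads served for depth, counting intervals (exact, 95%), the chi-square between libraries and the check of the DMSO columns. The main limma fit did not use them. The test was run on simulated data first.

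All 9 members are named, and some check genes are not reported here. Of the other pathway genes, up to 4 per comparison with the smallest adjusted p are named, plus those that a group sentence needs. Likeness takes the 3 highest correlations per member, without clone, locus or Riken names. Alternatives were a pseudocount of 0.1, no filter, median-of-ratios scaling, a block for the replicate number, other sets of groups, no trend and each library left out. Division of the altered DMSO values by 0.3 was added after the data were examined.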

Additional observations from a re-analysis of the deposited data

Results flagged for a closer look

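For 8 of the 9 genes the difference made by TGF-beta1 was not the same with enzalutamide as without it, by limma's interaction term on log2(TPM + 1) over all genes tested. The difference with enzalutamide minus that without was -1.42 for Igf1 (adjusted p = 1.2e-05), -2.46 for Igf2 (4.6e-07), -1.55 for Igf1r (2.2e-07) and -8.13 for Igfbp2 (8.8e-11). It was 2.73 for Igfbp3 (8.3e-08), -1.75 for Igfbp4 (3.3e-10), -1.39 for Igfbp6 (2.1e-06) and -1.41 for Igfbp7 (7.8e-06). Each of these values rests on the libraries labelled with both agents, which were close to the ADT libraries in all genes, and over all genes tested 9452 of 14828 were called in the same test.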

How the results depend on the processing

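Of 699 member differences recomputed under the alternatives, 681 kept their direction and their side of the threshold, 15 fell out of the calls, 3 entered them and 0 reversed. Of the 699, 54 came from division of the altered DMSO values by 0.3, which changed no value of the 9 genes. Another 54 came from adding the Sox4-labelled columns, which are treated as computed from the ADT columns. All of both kinds stayed the same, and these 2 settings could move the calls little. Calls lost or gained were those of Igf2, Igfbp2 and Igfbp5 with enzalutamide and of Igfbp2 and Igfbp7 with TGF-beta1. Igfbp2 was called with enzalutamide only in a fit of the 2 groups (adjusted p = 0.048). The members called with enzalutamide numbered 5, but 3 without a filter on low values, where more genes are tested, and 3 to 4 with 1 library left out (3 without the first DMSO library or either enzalutamide library). Leaving out 1 of 2 libraries assumes that the other varies like the remaining groups. Genes called between the libraries labelled with both agents and the ADT libraries numbered 2, but 6 with a pseudocount of 0.1, 14 without the filter, 5 with the Sox4-labelled columns added, 0 in a fit of only those groups, and 0 to 2 with 1 library left out (0 without either both-agents library or the first ADT library). The cause was not tested. Since the Sox4-labelled columns are treated as computed from the ADT columns, the fit that adds them gains no independent library. With the replicate number as a block, 4, 8, 9, 9, 0 and 8 members were called in the 6 comparisons (enzalutamide, TGF-beta1, both agents and ADT against DMSO, both agents against ADT, additivity), and 0 genes between both agents and ADT. The numbers did not pair the samples: correlations of same-numbered deviations lay between -0.028 and 0.093. Depth limits Igfbp2 in the last 2 groups, at 4 and 3 pooled reads.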
